A study of Mus musculus with 6 samples.

Results

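The genes described here are 38 genes of glucose uptake, glycolysis and the hypoxia-inducible factor (HIF) pathway, taken by symbol from a fixed list. They were 39 of the 32285 rows in the deposited table, because 2 Ensembl identifiers carry the symbol Aldoa. RNA came from DBA-GFP GS cells, a wild-type mouse germline stem cell line that carries GFP and stands in culture for the stem cells of the testis. The control condition was complete medium (3 libraries), and the other was medium named for 8 mM pyruvate (3 libraries). The labels give no glucose level, oxygen level or time in medium for either group, and both groups are the same single line. They do not say that the libraries of a group came from separate cultures, so the spread between them may be technical.

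Glycolysis turns glucose into pyruvate in the cytosol, yielding ATP without oxygen. Hexokinase, phosphofructokinase and pyruvate kinase catalyse its nearly irreversible steps, and fructose 2,6-bisphosphate, made by the Pfkfb enzymes, activates phosphofructokinase. HIF is a pair of proteins whose alpha subunit is hydroxylated by the Egln oxygenases when oxygen is present and is then marked for destruction by Vhl; those oxygenases use 2-oxoglutarate, so their activity is tied to metabolism as well as to oxygen. When the alpha subunit is stable it joins Arnt and raises transcription of glucose transporters, glycolytic enzymes and genes such as Vegfa and Bnip3. Cultured spermatogonial stem cells are known to use glycolysis heavily.

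Total counts per library lay between 20918312 and 26413080, and the 39 rows held 0.401% to 0.474% of them. Control replicate 2 stood apart from the other controls on the first principal component of all tested genes (36.5 against -4.12 and 0.81), and pyruvate replicate 1 stood opposite to it (-27.2, against -1.42 and -4.64). On the second component (28.4% of the variance) control replicate 2, at 7.33, lay by the pyruvate libraries (9.84, 15.1 and 12.5). The other controls were at -23.4 and -21.4. Counts below are given without control replicate 2 as well. With pyruvate replicate 1 left out, 0 of 37 members passed the test, against 1 of all 15024 genes tested. All 18 of the spermatogonial stem cell and germ cell markers were detected, with summed levels of 4278 to 5017 CPM (counts scaled to a common library size) in control and 4131 to 4517 in pyruvate libraries, and Dazl was the highest. The 15 markers of differentiating spermatogonia and meiosis, 13 of them tested, summed to 910 to 979 CPM in control and 729 to 895 in pyruvate libraries without overlap; Prm1 was at 0, 0 of the 13 passed, and their part in the results below was not tested. The 16 fibroblast and feeder markers summed to 426 to 496 and 416 to 453 CPM, most of it Fn1, and Sertoli, Leydig, endothelial and immune markers stayed at or below 36.8 CPM per list, with Fshr, Insl3, Lhcgr, Emcn and Adgre1 at 0. In bulk RNA, fewer cells of a type and less RNA per cell cannot be told apart.

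The comparison of pyruvate with complete medium asks how transcripts of glucose use and of the HIF pathway stand when cells are given pyruvate. None of the members passed edgeR's quasi-likelihood test over all genes: 0 of the 36 tested had a Benjamini-Hochberg adjusted p under 0.05, against 0.0536% of all 14912 genes tested. The largest differences were in 4 members that stood higher in pyruvate medium: Aldoc, an aldolase isoenzyme, 1.66-fold; Ndrg1, a stress-responsive gene induced by hypoxia, 1.63-fold; Pfkfb3, a maker of fructose 2,6-bisphosphate, 1.57-fold; and Bnip3, a mitochondrial protein that promotes mitophagy, 1.38-fold. In each of these the lowest pyruvate library lay above the highest control library. On the other side, Pfkp, Pgk1, Gapdh, Hk2 and Tpi1 stood at 0.78 to 0.85 of their control level in the fit. The HIF subunits, glucose transporters and hydroxylases differed by 1.15-fold or less.

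At an unadjusted p under 0.05 there were 7 members (4 higher, 3 lower; 19.4%), against 14.4% of all genes tested. The groups did not overlap in 9 of 36 (25.0%; 6 higher, 3 lower), against 22.5% of all genes (11.9% higher, 10.6% lower). Both shares lie close to the background, and the median log2 fold change was -0.0048 over the members and -0.0099 over all genes tested. Without control replicate 2, 7 of 37 tested members passed (18.9%), against 4.16% of all genes: Aldoc, Pfkfb3, Bnip3, Ndrg1 and Kdm3a rose (5 members, against 2.33% of all genes), and Gapdh and Tpi1 fell (2 members, against 1.82%). The median over the members was then -0.011. With all libraries, 2 members passed when low genes were not filtered (0.371% of all genes), 4 with DESeq2 (2.13%) and 5 with trends in GC content and length removed (3.64%); with those trends and control replicate 2 both removed, 9 passed (8.49%). The members that passed with DESeq2 were Aldoc, Pfkfb3, Bnip3 and Ndrg1, all higher.

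**Figure D1:**
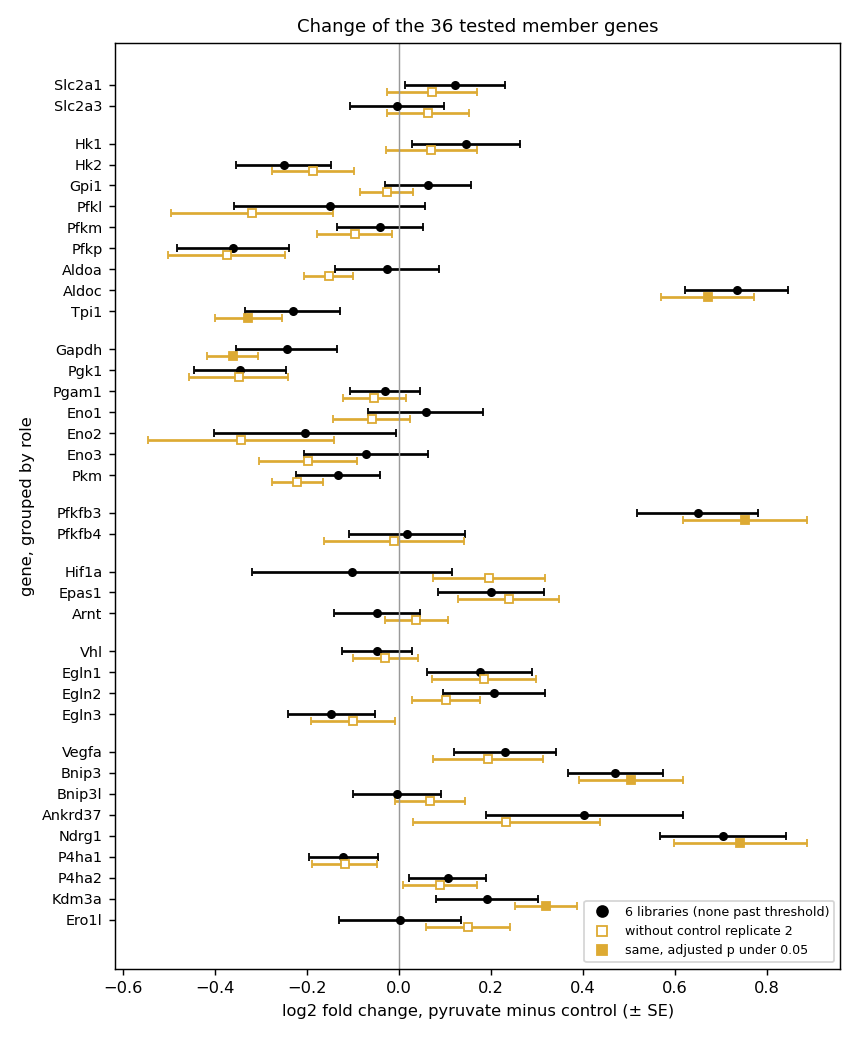
Log2 fold change of the 36 tested member genes, pyruvate minus control, with its standard error, grouped by role; black circles use 6 libraries and yellow squares leave out control replicate 2, filled where the adjusted p was under 0.05. Aldoc, Pfkfb3, Ndrg1 and Bnip3 stand furthest to the right in both fits, and 0 circles and 7 squares passed.

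HIF binds a short core, A or G followed by CGTG, and promoters of members were searched for ACGTG and GCGTG on both strands. Windows of 250 bases before to 50 after a RefSeq start (GRCm38.p6) were at hand for 34 of 38 members, 49 windows in all; Slc2a3, Epas1, Bnip3l and Ndrg1 had none. A core was found in 77.6% of these windows, against 43.8% of all 32841 windows. In the 12 windows of the HIF target list the share was 75%. Counted by gene, 30 of 34 members and 12627 of all 27018 genes had a core. The windows were not matched for base composition, and its part in the difference was not tested. The E-box CACGTG, which contains ACGTG on both strands and is bound by other factors as well, was found in 10.2% and 7.15%. Of the tested members with a core in any window, 14 stood above 0 and 14 below, with a median log2 fold change of -0.012; of the 4 without one, 1 stood above 0 and 3 below.

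The following stretches show cores in members that stood higher (Bnip3 and the inner start of Pfkfb3) and lower (Pgk1 and Gapdh) in pyruvate medium. They are RefSeq promoter sequence on GRCm38.p6, written 5′ to 3′ on the gene's strand, ending before the start, with bases in annotated exons left out. Capitals mark ACGTG or GCGTG on either strand.
Bnip3 (chr7:138909520-138909756, minus strand): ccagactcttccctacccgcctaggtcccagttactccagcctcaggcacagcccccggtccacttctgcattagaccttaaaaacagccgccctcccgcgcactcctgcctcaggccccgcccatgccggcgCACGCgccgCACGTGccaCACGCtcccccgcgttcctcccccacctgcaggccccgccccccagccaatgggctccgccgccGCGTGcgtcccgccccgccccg
Pfkfb3 (chr2:11502102-11502340, minus strand): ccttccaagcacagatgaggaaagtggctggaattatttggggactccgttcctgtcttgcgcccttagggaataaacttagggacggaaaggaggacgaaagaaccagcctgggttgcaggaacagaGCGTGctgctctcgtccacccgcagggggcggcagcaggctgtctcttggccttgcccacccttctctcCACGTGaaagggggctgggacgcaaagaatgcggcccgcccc
Pgk1 (chrX:106186850-106187099, plus strand): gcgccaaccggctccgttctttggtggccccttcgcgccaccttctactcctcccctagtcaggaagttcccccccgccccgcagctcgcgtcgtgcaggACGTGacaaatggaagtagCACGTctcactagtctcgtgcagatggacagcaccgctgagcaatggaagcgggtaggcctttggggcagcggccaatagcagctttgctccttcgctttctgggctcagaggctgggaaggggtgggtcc
Gapdh (chr6:125165774-125166023, minus strand): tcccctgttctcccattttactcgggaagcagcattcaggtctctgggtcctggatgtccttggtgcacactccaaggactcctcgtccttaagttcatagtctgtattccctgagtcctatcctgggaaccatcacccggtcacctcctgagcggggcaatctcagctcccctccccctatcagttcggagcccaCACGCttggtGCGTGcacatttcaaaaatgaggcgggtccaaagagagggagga
Bnip3 has 5 cores in this stretch, 2 of them the opposite strands of 1 E-box 108 bases before the start, and Pfkfb3 has 3, with such an E-box 53 bases before. Pgk1 has 2 ACGTG cores on opposite strands, 150 and 131 bases before the start, and Gapdh 2 GCGTG cores, 54 and 44 bases before. Aldoc and Car9 have their cores in bases annotated as exon in longer transcripts, so only 12 bases on either side are shown.
Aldoc (chr11:78323011-78323039, plus strand): ccacctctgaggGCGTGgccttaccctag
Aldoc (chr11:78324147-78324175, plus strand): cctcccatccccCACGCtgcatctcttct
Car9 (chr4:43506996-43507024, plus strand): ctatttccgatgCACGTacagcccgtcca
The 2 Aldoc stretches belong to 2 starts and hold GCGTG, 50 and 39 bases before each start. Car9 has ACGTG on the opposite strand 18 bases before its start, and its RNA was under the counting limit of 3 counts in both media.

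**Figure D2:**
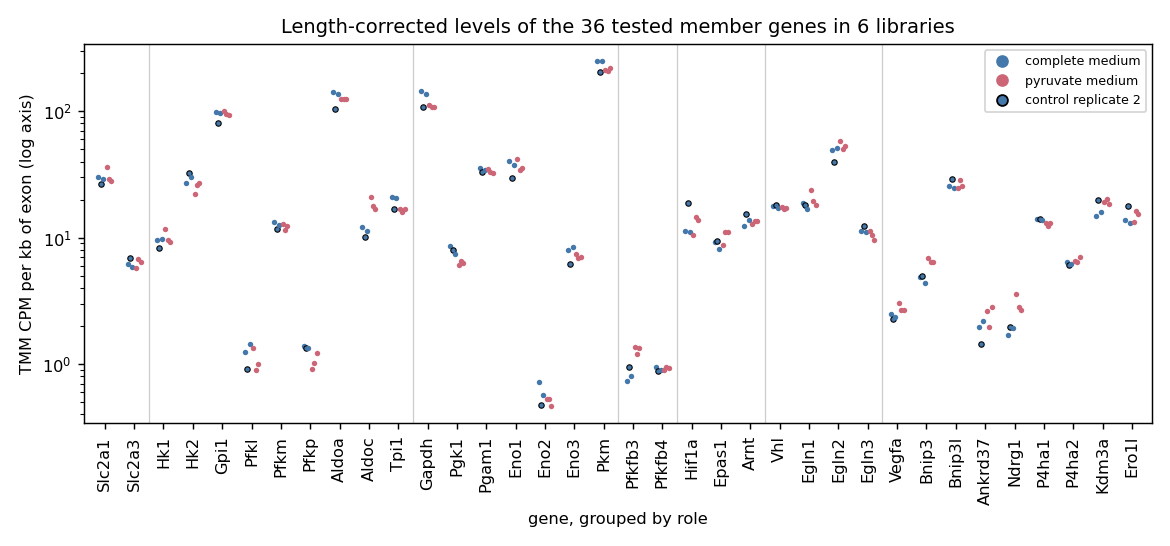
TMM-normalized CPM per kb of exon (log axis) of the 36 tested members in each library, with complete medium in blue, pyruvate medium in red and control replicate 2 outlined. Pkm, Aldoa, Gapdh and Gpi1 are highest, between 94.2 and 224 CPM per kb on average, and Eno2 is lowest at 0.55.

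Per length, 4 glycolytic enzymes had the highest levels. Averaged over 6 libraries, Pkm, pyruvate kinase, stood at 224 CPM per kb of exon, Aldoa at 126, Gapdh at 120 and Gpi1, glucose-6-phosphate isomerase, at 94.2. Egln2, the HIF hydroxylase of highest level, followed at 50.1 and Eno1 at 36.5. For each of these the groups overlapped. Levels of several enzymes are uncertain, because their transcripts match other genes at 98% identity over at least 75 bases. The matched share was 85.6% for Eno1, 68.8% for Pgk1, 65.5% for Pkm, 43.1% for Pgam1, 35.7% for Gapdh (74 other genes) and 27.3% for Gpi1, and for the targets 68.6% for Bnip3 and 34.7% for Bnip3l. Exons of 13 members overlap a gene on the opposite strand, among them Slc2a1, Hk1, Pfkp, Tpi1, Gapdh, Hif1a, Bnip3 and Ndrg1, and the strand setting of the counting is not given.

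Both glucose transporters stood at similar levels in the 2 media. Slc2a1, the widely expressed transporter and a classical HIF target, was at 106, 93.1 and 102 CPM in control replicates 1, 2 and 3 and at 126, 102 and 98.9 CPM in pyruvate replicates 1, 2 and 3. Only pyruvate replicate 1 lay above all controls (log2 fold change 0.12, SE 0.11, adjusted p = 0.648 in edgeR). Slc2a3, the high-affinity transporter, was at 44.9, 50.2 and 42.8 CPM in control and 41.5, 49.2 and 46.7 in pyruvate libraries (log2 -0.0050, SE 0.10). Its groups were interleaved.

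The hexokinases trap glucose as its phosphate, and neither passed the test. Hk2, the inducible form, was at 162, 194 and 179 CPM in control and 132, 155 and 163 in pyruvate libraries, so that pyruvate replicate 3 reached into the control range (log2 -0.25, SE 0.10, adjusted p = 0.326 in edgeR). Hk1, the constitutive form, was at 81.9, 70.1 and 83.8 CPM in control and 100.4, 82.3 and 78.2 in pyruvate libraries, with 2 of 3 pyruvate libraries inside the control range (log2 0.15, SE 0.12). Without pyruvate replicate 1 the log2 values were -0.16 for Hk2 and 0.036 for Hk1, and without control replicate 2 the Hk1 value was 0.070. Per kb of exon, Hk2 made up 76.3% ± 3.11 of the pair in control and 71.0% ± 5.09 in pyruvate libraries (SD, n = 3 per group). The difference was -5.34 percentage points, and the groups overlapped (two-sided exact permutation test p = 0.20, adjusted over 4 isoenzyme shares 0.27). With 3 against 3 libraries the p of that test cannot go below 0.10.

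Of the phosphofructokinases, which commit sugar to glycolysis, Pfkm was the highest per length at 12.4 CPM per kb and stood at log2 -0.042. Pfkp, the platelet form, was at 18.6, 17.8 and 17.8 CPM in control and 12.2, 13.7 and 16.3 in pyruvate libraries. All pyruvate libraries lay below all controls, with the widest spread among the pyruvate libraries (log2 -0.36, SE 0.12, adjusted p = 0.237 in edgeR). Pfkl, the liver form, ran from 6.08 to 9.69 CPM in control and from 6.01 to 8.88 in pyruvate libraries. Its share of the 3 forms per length was 7.90% ± 1.42 and 7.48% ± 1.15 (SD, n = 3; exact permutation test p = 0.70, adjusted 0.70).

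The aldolases split fructose 1,6-bisphosphate, and neither of the 2 tested passed with all libraries. Aldoc (ENSMUSG00000017390, chromosome 11, 78322968 to 78327781 on GRCm38), the form best known from brain, was at 39.2, 33.05 and 36.6 CPM in control replicates 1, 2 and 3 and at 68.1, 58.2 and 54.7 CPM in pyruvate replicates 1, 2 and 3. Each pyruvate library stood well above each control (log2 0.73, SE 0.11, adjusted p = 0.0757 in edgeR), which is the lowest adjusted p among the members. It rose by 0.67 without control replicate 2 (SE 0.10, adjusted p = 0.00984), and over all 16 alternatives the log2 value lay between 0.64 and 0.80 and the adjusted p between 2.33e-05 and 0.353. Aldoa, the main form, was at 371 ± 59.2 and 364 ± 1.01 CPM (SD, n = 3; log2 -0.026), and its second row held 2 to 10 counts per library. Aldoc's share of both per length was therefore 7.86%, 8.88% and 7.57% in control and 14.3%, 12.5% and 11.8% in pyruvate libraries, with no overlap. The difference of 4.77 percentage points gave the smallest p this design allows (two-sided exact permutation test p = 0.10, adjusted 0.27).

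**Figure D3:**
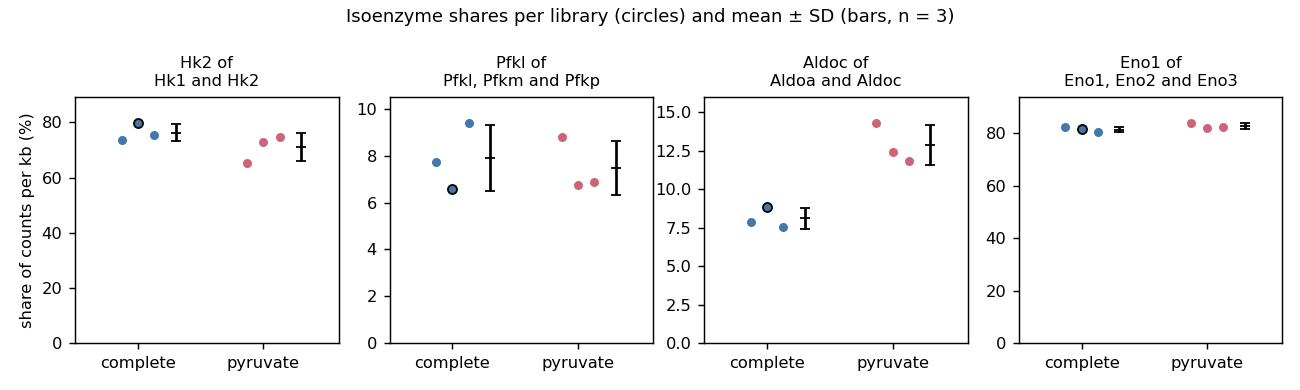
Share of 1 isoenzyme in the counts per kb of its family, in percent, for each library (circles, control replicate 2 outlined) with mean ± SD (n = 3). The Aldoc share lies between 7.57% and 8.88% in complete medium and between 11.8% and 14.3% in pyruvate medium, while the Hk2, Pfkl and Eno1 shares overlap between the groups.

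Tpi1, triose phosphate isomerase, was given per library after its values were seen. It stood at 57.6, 46.4 and 57.1 CPM in control and 46.4, 44.1 and 46.7 in pyruvate libraries, with control replicate 2 alone inside the pyruvate range (log2 -0.23, SE 0.10, adjusted p = 0.358 in edgeR). Gpi1 stood at log2 0.062.

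The lower enzymes leaned downward, 6 of 7 with a log2 value below 0 and a median of -0.13 (-0.22 to -0.032 over the alternatives), while 48.1% of all genes stood above 0. Of the 7 members 0 passed, and Gapdh alone did without control replicate 2. Gapdh, glyceraldehyde 3-phosphate dehydrogenase, was at 599, 445 and 564 CPM in control and 461, 448 and 449 in pyruvate libraries. Control replicate 2 lay below every pyruvate library while the other controls lay above them (log2 -0.24, SE 0.11, adjusted p = 0.357 in edgeR). Leaving it out, Gapdh fell by 0.36 in log2 units (SE 0.056, adjusted p = 0.0110), and Tpi1 fell by 0.33 (SE 0.072, adjusted p = 0.0357). Over the alternatives the adjusted p of Gapdh ran from 0.00101 to 0.636. Pgk1, phosphoglycerate kinase, was at 19.2, 17.8 and 16.6 CPM in control and 13.6, 14.5 and 14.04 in pyruvate libraries. Its groups did not overlap, and control replicate 2 was in the middle of the controls (log2 -0.35, SE 0.10, adjusted p = 0.189 in edgeR; 0.0781 to 0.449 over the alternatives).

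Pkm was at 1244, 1024 and 1244 CPM in control and 1066, 1037 and 1099 in pyruvate libraries, again with control replicate 2 the lowest of all (log2 -0.13, SE 0.091, adjusted p = 0.539 in edgeR). Pgam1, phosphoglycerate mutase, stood at log2 -0.031, Eno1 at 0.057, Eno2 at -0.20 and Eno3 at -0.072. Eno1 held 81.5% ± 0.90 of enolase per length in control and 82.9% ± 0.98 in pyruvate libraries (SD, n = 3; exact permutation test p = 0.20, adjusted 0.27). Summed over the 17 enzyme rows, levels were 3630, 2953 and 3559 CPM in control and 3275, 3136 and 3204 CPM in pyruvate libraries, so the pyruvate libraries lay between control replicate 2 and the other controls.

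**Figure D4:**
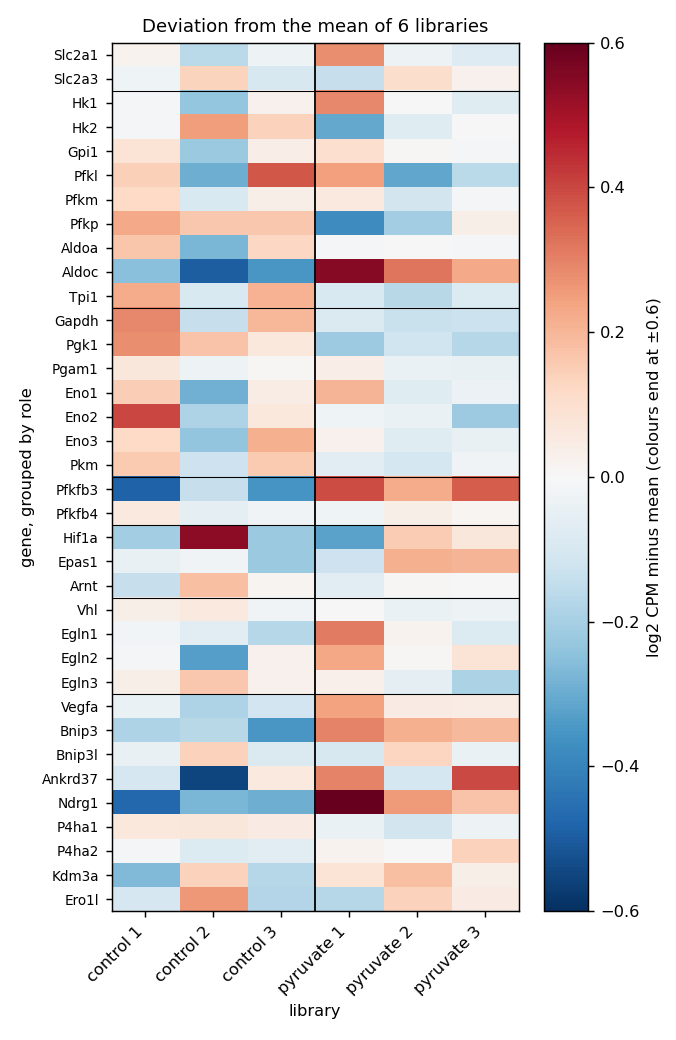
Log2 CPM of each tested member in each library minus its mean over 6 libraries (colours end at ±0.6), grouped by role, with a line between the media. Control replicate 2 is the lowest of all libraries in 14 of 36 members, among them Aldoa, Eno1, Gpi1 and Pkm, and the highest in 9, Hif1a and Hk2 included.

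Control replicate 2 was the lowest of the 6 libraries in 38.9% of the tested members and in 29.3% of all tested genes, and the highest in 25.0% and 31.2%. Over the 9 upper enzymes its median deviation from the mean of all libraries was -0.22 on the log2 scale, against 0.12 and 0.13 in the other controls and -0.071 to 0.057 in pyruvate libraries. Pyruvate replicate 1 was the highest in 30.6% of the members, against 24.5% of all genes, and the lowest in 16.7%, against 23.4%. What sets control replicate 2 apart was not tested.

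Of the 2 Pfkfb enzymes, which set the level of fructose 2,6-bisphosphate, 0 passed the test. Pfkfb3 (ENSMUSG00000026773, chromosome 2, 11471433 to 11554077), whose kinase activity far exceeds its phosphatase activity, was at 5.56, 7.10 and 6.11 CPM in control and 10.3, 9.15 and 10.1 in pyruvate libraries. Every pyruvate library lay above every control, and the promoter of its inner start is among those shown (log2 0.65, SE 0.13, adjusted p = 0.116 in edgeR). With its highest control, replicate 2, left out, it rose by 0.75 (SE 0.13, adjusted p = 0.0189); the adjusted p ran from 0.00884 to 0.394 over the alternatives. Pfkfb4, a relative also induced by hypoxia, ran from 4.28 to 4.64 CPM in control and from 4.38 to 4.58 in pyruvate libraries (log2 0.016, SE 0.13).

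The HIF subunits did not separate the media. Hif1a, the ubiquitous alpha subunit, was at 66.6, 111.5 and 65.8 CPM in control and 61.5, 85.4 and 80.5 in pyruvate libraries. Control replicate 2 was the highest library, and pyruvate replicate 1 the lowest (log2 -0.10, SE 0.22, adjusted p = 0.860 in edgeR). Without control replicate 2 the value was 0.20 (SE 0.12, adjusted p = 0.385), without pyruvate replicate 1 it was 0.035 and with GC and length trends removed 0.026, so the sign was not settled. The adjusted p ran from 0.204 to 0.989 over the alternatives. Epas1, the alternative alpha subunit HIF-2α, was at 50.1 ± 3.77 and 57.6 ± 7.37 CPM, and Arnt, the shared partner, at 111 ± 12.2 and 107.0 ± 3.12 CPM (SD, n = 3). Since HIF is controlled mainly by protein stability, RNA levels of its subunits do not report its activity.

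Among the factors that destroy HIF, Vhl, the substrate receptor of its ubiquitin ligase, was at 52.9 ± 1.51 CPM in control and 51.2 ± 0.66 in pyruvate libraries. Egln1, the main HIF hydroxylase, stood at log2 0.18 (SE 0.11) and Egln2 at 0.21 (SE 0.11), with adjusted p of 0.522 and 0.440 in edgeR. Egln3, a hydroxylase that is itself a HIF target, was at 29.9, 32.7 and 29.7 CPM in control and 29.8, 28.0 and 25.6 in pyruvate libraries. Pyruvate replicate 1 lay within the controls, so the groups overlapped (log2 -0.15, SE 0.095, adjusted p = 0.521 in edgeR).

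The HIF targets held 2 of the 4 largest differences. Of the 11 genes in this list 9 were tested, 7 with a log2 value above 0 and 2 below, against 48.1% of all genes above 0. Their median was 0.19 (0.11 to 0.22 over the alternatives), and 0 passed over all genes. The lean is that of this list, not of HIF targets at large. Slc2a1 and Egln3, targets placed in other lists, stood at 0.12 and -0.15. Of the glycolytic enzymes, a class that HIF raises, 3 of 9 upper and 1 of 7 lower stood above 0. The 42 other HIF pathway genes tested had 20 above and 22 below 0. Of 10 targets tested without control replicate 2, 3 passed (Bnip3, Ndrg1 and Kdm3a, all higher), against 2.33% of all genes called higher in that fit. Of these 10, 8 stood above 0 and 2 below, P4ha1 and Adm. Ndrg1 (ENSMUSG00000005125, chromosome 15, 66929318 to 66969640) was at 11.3, 12.9 and 12.7 CPM in control and 23.8, 18.7 and 17.6 in pyruvate libraries. Pyruvate replicate 1 was the highest, but each of the others also exceeded every control (log2 0.70, SE 0.14, adjusted p = 0.114 in edgeR). It rose by 0.74 without control replicate 2 (SE 0.14, adjusted p = 0.0245), and the adjusted p ran from 0.00252 to 0.394 over the alternatives.

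Bnip3 (ENSMUSG00000078566, chromosome 7, 138890836 to 138909519) was at 11.1, 11.2 and 9.88 CPM in control and 15.5, 14.6 and 14.4 in pyruvate libraries. These values were tight within each group and did not overlap (log2 0.47, SE 0.10, adjusted p = 0.134 in edgeR). Whether the 5 cores in the promoter stretch shown bear on them was not tested. Bnip3 rose by 0.50 without control replicate 2 (SE 0.11, adjusted p = 0.0369), with adjusted p from 0.0123 to 0.409 over the alternatives. Its close relative Bnip3l, also a mitophagy receptor, stood at 102 ± 8.61 and 101 ± 8.30 CPM (SD, n = 3; log2 -0.0047, SE 0.095). The difference between the 2 genes' changes was not tested.

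Vegfa, the angiogenic growth factor most often used as a HIF readout, was at 10.7, 9.66 and 10.2 CPM in control and 13.02, 11.4 and 11.4 in pyruvate libraries. The groups did not overlap, but the step was small (log2 0.23, SE 0.11, adjusted p = 0.389 in edgeR). Neither collagen prolyl hydroxylase subunit passed the test. P4ha1 was at 57.6, 57.7 and 57.0 CPM in control and 53.6, 51.0 and 53.9 in pyruvate libraries, and P4ha2 at 40.0, 37.9 and 38.3 CPM and 40.7, 40.1 and 44.2 CPM. Neither pair of groups overlapped, with log2 values of -0.12 (SE 0.075) and 0.11 (SE 0.083) and adjusted p of 0.505 and 0.604 in edgeR.

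Kdm3a, a histone demethylase, was given per library after its values were seen. It stood at 122, 162 and 131 CPM in control and 156, 167 and 151 in pyruvate libraries, with control replicate 2 alone inside the pyruvate range (log2 0.19, SE 0.11). Without that library it rose by 0.32 (SE 0.067, adjusted p = 0.0318 in edgeR). Ankrd37 stood at 2.87 ± 0.61 and 3.79 ± 0.68 CPM (log2 0.40, SE 0.21), and Ero1l, an oxidase of protein folding, at log2 0.0022. Car9, the carbonic anhydrase used as a marker of strong hypoxia, had 0 or 1 counts in every library, under the limit of 3 counts (0.116 to 0.143 CPM). Adm, the peptide adrenomedullin, had 10 to 16 counts in control and 7 to 10 in pyruvate libraries and was not tested in the main fit. Without control replicate 2 it was tested and stood at log2 -0.98 (SE 0.41, adjusted p = 0.200 in edgeR). With no filter the value was -0.74 (SE 0.42).

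**Figure D5:**
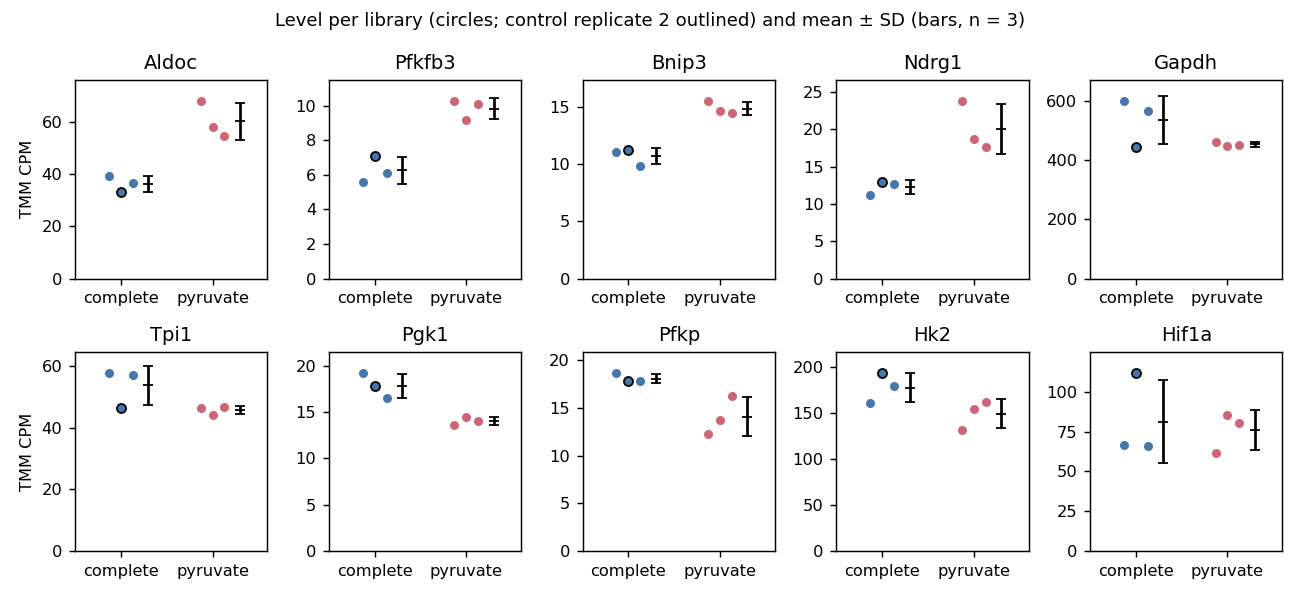
Level of 10 members in each library (circles, TMM-normalized CPM, control replicate 2 outlined) with mean ± SD (bars, n = 3). Aldoc, Pfkfb3, Bnip3 and Ndrg1 are higher in all pyruvate libraries, Pgk1 and Pfkp lower in all, and in Gapdh and Tpi1 control replicate 2 lies apart from the other controls at the pyruvate level.

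Other genes of both pathways, from lists that are not members, also gave a count of 0. Since 0.0536% of all 14912 genes tested passed, a count of 0 in lists of this size says little. Of 30 other glycolysis genes 20 were tested and 0 passed, with 9 above and 11 below 0 and a median of -0.0055. That list also takes in genes outside glycolysis itself, such as those of glycogen and UDP-glucose. Of 46 other HIF pathway genes 42 were tested and 0 passed, with 20 above and 22 below 0 and a median of -0.011. At an unadjusted p under 0.05 there were 2 higher and 3 lower in the first list and 3 higher and 5 lower in the second, 13 of 62 in all, against 14.4% of all genes. Without control replicate 2, 5 of the 62 passed, 3 higher (2.33% of all genes) and 2 lower (1.82%).

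In the first list the genes of lowest p all lay outside glycolysis itself. They were Pygl, glycogen phosphorylase, at log2 0.24 (SE 0.067), and Pgam5, a mitochondrial phosphatase, at -0.27 (SE 0.081). Ugp2, which makes UDP-glucose, followed at -0.34 (SE 0.10). The adjusted p of these genes was 0.186 to 0.202 in edgeR. Pygl was at 112, 114 and 115 CPM in control and 133, 133 and 137 in pyruvate libraries, the tightest of these groups. In the HIF list the genes of lowest p were Eloc, a subunit of the Vhl ubiquitin ligase, at -0.27 (SE 0.081), and Flt1, a VEGF receptor, at -0.65 (SE 0.20). Ddit4, an inhibitor of mTORC1 induced by stress, followed at 0.53 (SE 0.21). Flt1 was at 115, 138 and 123 CPM in control and 53.8, 90.3 and 95.9 in pyruvate libraries, and its log2 value was -0.43 without pyruvate replicate 1, the lowest library; it passed with DESeq2. Ddit4 was at 22.9, 22.5 and 24.9 CPM in control and 47.0, 27.3 and 27.3 in pyruvate libraries, so that most of its difference came from pyruvate replicate 1, without which the log2 value was 0.23. Gapdhs and Pgk2, the sperm-line forms of Gapdh and Pgk1, chosen after their values were seen, had 0 to 2 and 0 to 3 counts per library.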

How the data were processed

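The deposited values are raw counts, whole numbers for each Ensembl gene, from a stranded mRNA kit per the labels' protocols. Tools named in the submitters' processing notes are STAR 2.7.11a, HTSeq 2.0.5, cutadapt 4.6 and bcl2fastq 2.20, with mm10 as the build; which annotation release, strand setting and filters the authors used is not given in the sources used here. The 3 columns of other samples were not used. Symbols, positions and lengths came from GENCODE M21 on GRCm38 (32158 of 32285 rows had a symbol), and promoters from RefSeq. Lengths are the union of a gene's annotated exons, so levels and shares per length depend on that choice.

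The test was run with edgeR 4.0.16 (R 4.3.3): filterByExpr with a minimum count of 10, TMM factors, the robust quasi-likelihood test over the whole table without covariates, and a Benjamini-Hochberg threshold of 0.05. SE values are log2 fold changes over the root of F. Levels are TMM-normalized CPM. Floors of 3 counts cover counting error only. Libraries of 1 group differed by more than sampling noise (chi-square per gene 2.97 to 43.3). Alternatives were DESeq2 1.42.0 size factors and test, library totals, upper quartile, no filter, 5 CPM in 3 libraries, limma-voom 3.58.1, the replicate number as a block, splines (5 degrees of freedom) removing GC and length trends, and each library left out; trend removal without control replicate 2 was added after seeing the data. The edgeR, limma-voom, DESeq2 and trend-removal steps were also run on simulated counts. Those counts held no effect shared by the genes of 1 library, so they do not cover a library such as control replicate 2.

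Members and lists were chosen with earlier results of these data known. Values in every library are given for members with an unadjusted p under 0.05, or with groups apart and a mean of at least 5 CPM, and for 11 members fixed by name; of each list of other pathway genes the 3 of lowest p are named. Genes outside this rule are marked as chosen after their values were seen.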

Additional observations from a re-analysis of the deposited data

How the results depend on the processing

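No member passed with all libraries by edgeR, with DESeq2 size factors, library totals, upper-quartile scaling, the 5 CPM filter or limma-voom. At an unadjusted p under 0.05 there were 6 members with library totals and 7 with each of the others. Over all genes there were 2075 of 14912 with library totals and 2145 of 14912 (14.4%) by edgeR. The remaining settings named had 2018 to 2162 of 14912, and the 5 CPM filter 1566 of 10888. Other settings passed 2 members with no filter (Aldoc and Ndrg1, against 0.371% of all genes), 4 with DESeq2 (Aldoc, Pfkfb3, Bnip3 and Ndrg1, against 2.13%), 5 with GC and length trends removed (the same 4 and Tpi1, against 3.64%), and 9 with trends removed and control replicate 2 left out (5 higher and 4 lower, against 8.49%). Leaving out 1 library gave 0 to 7 members, 7 without control replicate 2 and 0 without any other. Over all genes 625 passed without control replicate 2, and 0 to 3 without any other. The median over the members stayed between -0.029 and 0.027 over all settings.

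Calls over all genes, 8 with all libraries (3 higher, 5 lower), were 14 with library totals (8 and 6), 15 with the upper quartile (8 and 7), 83 with no filter (52 and 31), 317 with DESeq2 (182 and 135), 542 with trends removed (249 and 293), 1277 with trends removed and without control replicate 2, and 0 to 625 when 1 library was left out. Of the other pathway genes 1 passed with DESeq2 (Flt1), 1 with trends removed, 9 with trends removed and without control replicate 2, and 0 to 5 when 1 library was left out. The cause of these differences was not tested.

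With the replicate number as a block 265 genes (1.78%), 2 members (Aldoc and Ndrg1) and 2 other pathway genes, Flt1 among them, passed. Deviations of same-numbered libraries correlated at 0.31, 0.31 and -0.073. Control replicates 1 and 2 correlated best with the pyruvate library of their own number, and control replicate 3 with pyruvate replicate 1 (0.21). Control replicates 1 and 3 were nearly alike, and deviations within 3 libraries depend on each other. These values therefore cannot decide whether the numbers pair the samples.

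Of 23 named genes 21 kept their sign under all 16 alternatives. Slc2a3 changed sign with library totals (0.027), upper quartile (0.011), trends removed (0.011), without control replicate 2 (0.063) and without pyruvate replicate 1 (0.067); leaving out 1 library gave -0.060 to 0.067. Hif1a changed sign with trends removed (0.026), without control replicate 2 (0.20), without pyruvate replicate 1 (0.035) and with both trends and control replicate 2 removed (0.17); leaving out 1 library gave -0.23 to 0.20. The Pfkl share changed sign without control replicate 3 (0.33 percentage points); leaving out 1 library gave differences of -1.09 to 0.33 for Pfkl, 4.05 to 5.29 for Aldoc, -7.27 to -2.46 for Hk2 and 0.81 to 1.76 for Eno1. Without division by length, mean shares in control and pyruvate libraries were 69.3% and 63.2% for Hk2 and 11.7% and 11.6% for Pfkl. For Aldoc they were 8.99% and 14.2%, and for Eno1 92.4% and 93.1%. With all libraries and the main filter, depth left 3 rows without a test: Car9 (0 or 1 counts per library), the second Aldoa row (2 to 10) and Adm (7 to 16).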
